A study of Mus musculus with 6 samples.

Results

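The Schlafen genes are a mammalian gene family active mainly in blood cells, and interferon induces many of its members. The members described here are Slfn1, Slfn2, Slfn3, Slfn4, Slfn5, Slfn8 and Slfn9, taken by exact symbol from a table of read counts of 16539 genes, and all 7 were found and passed the filter on low counts. The cells were granulocyte-monocyte progenitors, the marrow precursors of neutrophils and monocytes, which had been sorted by flow cytometry. They were taken 3 days after myocardial infarction from mice of WT genotype. Control libraries (n = 3) came from mice with infarction alone. Sleep fragmentation libraries (n = 3) came from mice whose sleep had been repeatedly interrupted and that also had the infarction, so that both groups carried the heart injury and no uninjured group is part of the comparison. The labels state neither strain, sex and age of the mice, nor the surface markers of the sort, nor how many mice went into a library. The p-values therefore reflect the spread between libraries, which may be partly technical.

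Schlafen proteins share an amino-terminal core that binds and in several members cuts RNA, and type I interferon raises many of them through a factor complex that binds the interferon-stimulated response element in promoters. Short members, Slfn1 and Slfn2, hold little more than this core. Slfn3 and Slfn4 are of intermediate length, and long members, Slfn5, Slfn8 and Slfn9, carry a helicase-like domain in addition. The family was first described in developing T cells, where Slfn1 slows growth, and Slfn2 is needed for T cells and monocytes to stay quiescent. In the GENCODE M21 annotation the coding sequences ran from 337 codons in Slfn1 and 378 in Slfn2 through 602 in Slfn4 and 640 in Slfn3 to 884 in Slfn5 and 910 in both Slfn8 and Slfn9. All members lie in 1 cluster on chromosome 11, in the order Slfn5, Slfn9, Slfn8, the pseudogene Slfn10-ps, Slfn2, Slfn1, Slfn4, Slfn3 and Slfn14.

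Total counts lay between 28971253 and 31665923 per library. Genes that define the sorted progenitors, such as Mpo and Elane, were present in all libraries, and the summed level of a list of 14 such markers was 19240 to 22230 CPM (the count per 1e+06 counts, after TMM scaling) in control and 14070 to 21190 CPM after sleep fragmentation. Of the 14, 12 were fitted lower after sleep fragmentation (median log2 fold change -0.17), 2 of them without overlap, and 0 had an unadjusted p under 0.05 by edgeR. Of 6 markers of mature neutrophils, all were detected, with summed levels of 1833 to 4395 CPM in control and 3440 to 8409 CPM after sleep fragmentation. All 6 were fitted higher (median log2 fold change 0.96), 4 of them at an unadjusted p under 0.05, with 0 called. Over all genes tested, 2.16% were higher at such a p by edgeR, and 3.84% were lower without overlap. T cell markers, which matter because T cells express Schlafen genes, summed to 9.74 to 16.9 CPM in control and 12.2 to 18.9 CPM after sleep fragmentation, over 10 markers of which 0 were at 0 in all libraries. Markers of some other cells had larger sums. Those of eosinophils had 2625 to 4697 CPM in control and 3135 to 4333 CPM after sleep fragmentation. Basophil and mast cell markers had 1142 to 2587 CPM in control and 1045 to 2289 CPM after sleep fragmentation. For monocyte and macrophage markers it was 2509 to 2744 and 2553 to 2842 CPM. From which cells these reads came was not tested. In these bulk libraries, a larger number of expressing cells and more RNA per cell cannot be told apart.

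Per kilobase of coding length, Slfn4 had the highest level of the family and Slfn5 the lowest, but the place of Slfn4 above Slfn2 depended on the length used. The control means were 299.8 CPM per kilobase for Slfn4, 187.5 for Slfn2, 75.99 for Slfn1, 33.6 for Slfn9, 10.6 for Slfn3, 7.04 for Slfn8 and 3.99 for Slfn5. Slfn4 lay above Slfn2, Slfn2 above Slfn1 and Slfn1 above Slfn9 in 6 of 6 libraries on this scale, without overlap in the control group. Per kilobase of merged exons, untranslated parts included, Slfn4 lay above Slfn2 in 4 of 6 libraries and below it in control replicate 1 (108.8 against 119.5 CPM) and control replicate 3 (107.3 against 110.5 CPM), so that this pair was not separated in the control group (means 136.6 and 127.8 CPM). Slfn3 and Slfn8 were not separated by their spread, with Slfn3 above Slfn8 in 4 of 6 libraries, and per kilobase of merged exons Slfn8 lay above Slfn3 in 4 of 6. Slfn8 lay above Slfn5 in 6 of 6 libraries, but their control ranges, 5.46 to 9.92 and 2.97 to 5.48 CPM per kilobase of coding length, overlapped. The remaining Schlafen rows of the table were near 0. Slfn14, a ribosome-binding endoribonuclease needed for platelet maturation, had counts of 0, 2 and 5 in control and 0, 1 and 14 after sleep fragmentation, and Slfnl1, a Schlafen-like gene, had at most 5 counts in a library. A count of 0 allows a level of up to 0.0947 CPM in control replicate 1 and up to 0.112 CPM in sleep fragmentation replicate 1 (3 counts per library, counting error only).

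**Figure D1:**
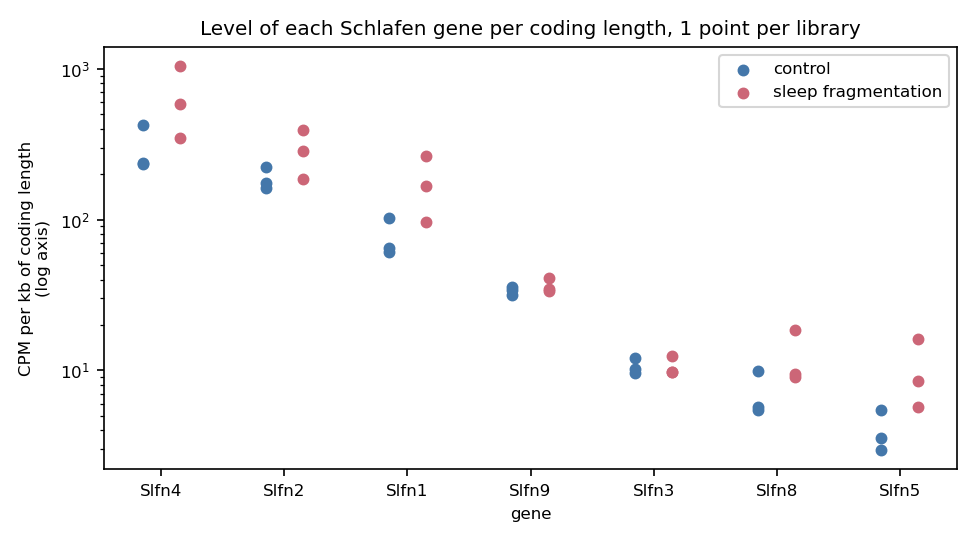
Level of each Schlafen gene in CPM per kilobase of coding length (vertical, log axis), with 1 point per library in control (blue) and after sleep fragmentation (red). On this scale Slfn4, Slfn2, Slfn1 and Slfn9 follow each other in that order in every library. The control points of Slfn8 overlap with those of Slfn3 and with those of Slfn5.

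Sleep fragmentation was compared with control to ask how it alters progenitors after infarction. Slfn1, Slfn2, Slfn4, Slfn5 and Slfn8 had fitted levels 1.54-fold to 2.53-fold higher after sleep fragmentation, whereas Slfn3 and Slfn9 had nearly equal levels in both groups. By edgeR's quasi-likelihood test over 12097 genes 0 members passed the threshold (adjusted p = 0.99988 for each of the 7), and that test called 0 genes in all (0%). At an unadjusted p under 0.05 there were 5 of 7 members, all higher, against 2.16% of all genes on the higher side and 0.661% on the lower. DESeq2, run as an alternative, also called 0 members, from 13 genes called in all (0.107%), and likewise gave 5 members an unadjusted p under 0.05, as it did 3.66% of all genes. The median log2 fold change was 0.81 over the 7 members and -0.0043 over all genes tested. Fitted levels were higher in 7 of 7 members, against 49% of all genes, although the sign of Slfn3 turned with the scaling and with single libraries. These members were chosen with earlier results of these data known.

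Slfn4, which is induced in myeloid cells by interferon and bacterial products and falls as macrophages mature, had the most counts of the 7 members. Replicates 1 to 3 had 431.1, 767.8 and 425.4 CPM in the control group, and 1882, 628.6 and 1063 CPM in the sleep fragmentation group. The groups overlapped, because control replicate 2 was above sleep fragmentation replicate 2. Means were 541.5 ± 196.0 against 1191 ± 636.3 CPM (SD, n = 3), a log2 fold change of 1.14 (SE 0.39; edgeR adjusted p = 0.99988). By raw count Slfn4 ranked 308, 128 and 284 among all genes in the control libraries, and 31, 182 and 81 in the sleep fragmentation libraries. It was thus among the 100 most counted genes in sleep fragmentation replicates 1 and 3 alone.

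Slfn1, a short member that holds back T cell growth, showed the same order of libraries at the top. It had 61.8, 103.4 and 65.4 CPM in control and 268.2, 97.9 and 168.1 CPM after sleep fragmentation, with control replicate 2 again above sleep fragmentation replicate 2. Means were 76.8 ± 23.0 against 178.1 ± 85.6 CPM (SD, n = 3), a log2 fold change of 1.21 (SE 0.34; edgeR adjusted p = 0.99988). Slfn2, which shields transfer RNAs from cleavage and whose loss ends the quiescence of T cells, had 198.8, 255.2 and 183.9 CPM in control and 448.7, 210.1 and 325.0 CPM after sleep fragmentation. Its means were 212.7 ± 37.6 against 327.9 ± 119.4 CPM (SD, n = 3), a log2 fold change of 0.62 (SE 0.26; edgeR adjusted p = 0.99988). From highest to lowest, Slfn1, Slfn2 and Slfn4 shared the order sleep fragmentation 1, sleep fragmentation 3, control 2, sleep fragmentation 2, and then the other two control libraries. The count of Slfn4 per count of Slfn1, which no scaling affects, lay between 6.32 and 7.43 in all 6 libraries.

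The promoters of these 3 genes are shown because the genes shared this order of libraries. Windows of 300 bases, from 250 before to 50 after the transcript start, were taken from RefSeq on build GRCm38.p6 and span chr11:83116570-83116869 (+ strand) for Slfn1, chr11:83064862-83065161 (+ strand) for Slfn2 and chr11:83174936-83175235 (+ strand) for Slfn4. Capitals mark the longest run of bases that all 3 windows share, ACTTCCTGGAG.
Slfn1 promoter window: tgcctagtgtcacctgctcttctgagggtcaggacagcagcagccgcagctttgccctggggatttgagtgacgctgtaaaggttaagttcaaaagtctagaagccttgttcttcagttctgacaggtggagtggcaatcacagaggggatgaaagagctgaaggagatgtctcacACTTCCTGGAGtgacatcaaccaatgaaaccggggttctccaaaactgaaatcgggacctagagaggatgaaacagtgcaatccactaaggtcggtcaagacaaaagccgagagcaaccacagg
Slfn2 promoter window: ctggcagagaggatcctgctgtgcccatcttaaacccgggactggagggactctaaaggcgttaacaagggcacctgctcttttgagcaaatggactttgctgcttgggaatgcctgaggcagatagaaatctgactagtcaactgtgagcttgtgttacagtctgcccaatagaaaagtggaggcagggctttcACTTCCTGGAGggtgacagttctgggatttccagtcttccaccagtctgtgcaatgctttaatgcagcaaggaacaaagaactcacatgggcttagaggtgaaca
Slfn4 promoter window: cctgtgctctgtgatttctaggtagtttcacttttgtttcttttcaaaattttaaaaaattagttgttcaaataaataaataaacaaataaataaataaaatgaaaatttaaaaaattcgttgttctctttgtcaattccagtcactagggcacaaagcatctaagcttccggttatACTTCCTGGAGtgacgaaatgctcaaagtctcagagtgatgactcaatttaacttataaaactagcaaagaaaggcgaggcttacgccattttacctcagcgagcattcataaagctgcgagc
The shared run of 11 bases began 74 bases before the start in Slfn1, 55 before it in Slfn2 and 73 before it in Slfn4. On either strand it occurred in 24 of 32851 windows of the same length over 27025 genes, or 0.0731%. It was picked after these windows were seen, and the windows of Slfn3, Slfn5, Slfn8 and Slfn9 did not hold it in full. The Slfn3 window held most of it, ACTTCCTGG, on the same strand. Of 12 tested genes outside the family whose windows held the full run, 7 were fitted higher, and the median log2 fold change was 0.076. None of these 3 windows held the letters GAAANNGAAA, the core of the interferon-stimulated response element, on either strand, nor TTCNNNGAA, the gamma-activated site.

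**Figure D2:**
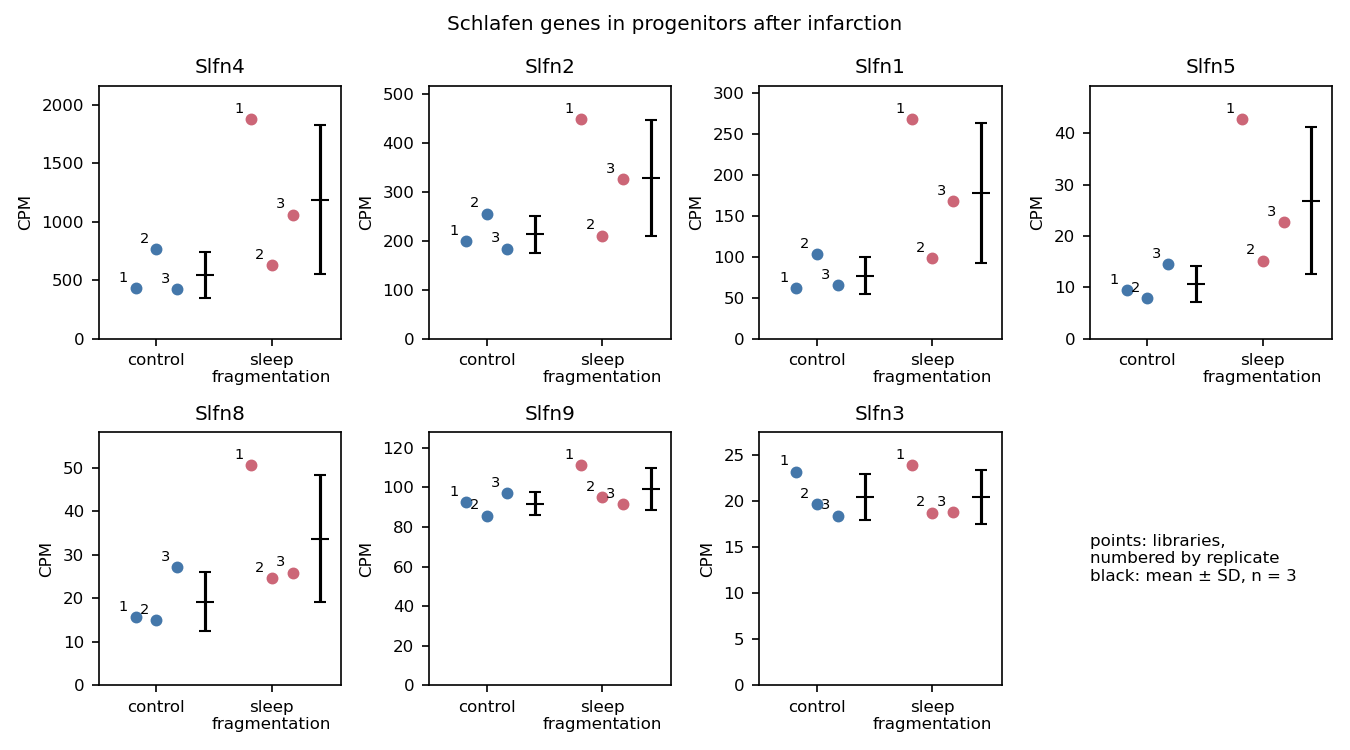
CPM of the 7 Schlafen genes (vertical axis from 0) in control (blue) and sleep fragmentation (red) libraries, numbered by replicate, with the mean ± SD (black, n = 3). Sleep fragmentation replicate 1 is the highest library for each gene, control replicate 2 lies above sleep fragmentation replicate 2 for Slfn4, Slfn2 and Slfn1, and for Slfn5 the groups do not overlap.

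Slfn5, a long member found in the nucleus that in human cells acts on interferon-driven transcription, had the largest fold change of the 7. It had 9.38, 7.86 and 14.5 CPM in control and 42.8, 15.2 and 22.6 CPM after sleep fragmentation. All 3 sleep fragmentation libraries were above all 3 control libraries, by a narrow gap between control replicate 3 and sleep fragmentation replicate 2. Means were 10.6 ± 3.50 against 26.9 ± 14.3 CPM (SD, n = 3), a log2 fold change of 1.34 (SE 0.38; edgeR adjusted p = 0.99988). It was the 1 member without overlap, where 2.92% of all genes were higher without overlap and 3.84% lower. An antisense gene, Slfn5os, overlaps Slfn5, and without a stated strand setting reads from the 2 cannot be told apart.

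Slfn8 and Slfn9 are near copies that bind transfer RNA and cut RNA according to the gene ontology terms in the deposited table. Slfn8 had 15.7, 14.9 and 27.1 CPM in control and 50.6, 24.7 and 25.9 CPM after sleep fragmentation. Control replicate 3 was above sleep fragmentation replicates 2 and 3, so the groups overlapped. Means were 19.2 ± 6.81 against 33.7 ± 14.6 CPM (SD, n = 3), a log2 fold change of 0.81 (SE 0.32; edgeR adjusted p = 0.99988). Slfn9 had 92.7, 85.7 and 97.0 CPM in control and 111.2, 95.2 and 91.4 CPM after sleep fragmentation, with overlapping groups. Its means were 91.8 ± 5.70 against 99.3 ± 10.5 CPM (SD, n = 3), a log2 fold change of 0.11 (SE 0.12, 95% interval -0.15 to 0.38; edgeR adjusted p = 0.99988). For each count of Slfn9 there were 0.169, 0.174 and 0.279 counts of Slfn8 in control and 0.455, 0.259 and 0.283 after sleep fragmentation. The transcripts of the pair were identical at 92.4% of aligned bases. Of the 100-base windows, 4.23% in Slfn8 and 5.87% in Slfn9 occurred unchanged in another Schlafen transcript, most often in Slfn10-ps. That pseudogene had no row in the table of counts, so its reads could not be seen. With counts of Slfn8 and Slfn9 summed to 1 row, the log2 fold change was 0.26 (SE 0.15).

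Promoter windows of Slfn5, Slfn8 and Slfn9 are shown because each held the core of the interferon-stimulated response element, marked in capitals, although Slfn9 differed little between the groups. They span chr11:82951852-82952151 (+ strand) for Slfn5, chr11:83020761-83021060 (- strand) for Slfn8 and chr11:82991781-82992080 (- strand) for Slfn9, on build GRCm38.p6 from RefSeq.
Slfn5 promoter window: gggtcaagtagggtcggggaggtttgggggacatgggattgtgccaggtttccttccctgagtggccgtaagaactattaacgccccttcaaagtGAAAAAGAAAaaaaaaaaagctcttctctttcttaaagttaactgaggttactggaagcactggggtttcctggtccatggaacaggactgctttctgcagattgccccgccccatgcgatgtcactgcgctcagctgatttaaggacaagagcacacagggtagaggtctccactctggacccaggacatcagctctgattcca
Slfn8 promoter window: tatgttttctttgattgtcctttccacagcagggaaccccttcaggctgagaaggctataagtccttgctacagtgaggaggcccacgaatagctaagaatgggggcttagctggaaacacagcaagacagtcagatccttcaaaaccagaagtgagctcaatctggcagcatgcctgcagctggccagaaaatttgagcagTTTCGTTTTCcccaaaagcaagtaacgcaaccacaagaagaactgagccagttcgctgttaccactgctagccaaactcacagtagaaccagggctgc
Slfn9 promoter window: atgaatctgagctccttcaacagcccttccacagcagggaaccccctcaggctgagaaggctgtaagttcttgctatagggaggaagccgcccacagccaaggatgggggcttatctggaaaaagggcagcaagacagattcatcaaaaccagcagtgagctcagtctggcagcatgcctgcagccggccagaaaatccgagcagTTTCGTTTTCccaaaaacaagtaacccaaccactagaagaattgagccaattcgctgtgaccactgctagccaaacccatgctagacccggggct
The match lay 155 to 146 bases before the start in Slfn5 and, on the opposite strand, 48 to 39 bases before it in Slfn8 and 45 to 36 before it in Slfn9. A further Slfn8 window, from a start downstream of this one, held the same match. The letters occurred in 3.44% of all windows on either strand. Counted by gene, 3.98% of genes outside the family with a window held them. On a list of interferon-stimulated genes it was 28 of 55 genes that had a window (50.9%). The window of Slfn3 did not hold them, and the gamma-activated site, found in 8.3% of all windows, was in none of the 8 windows of the 7 members. Between Slfn8 and Slfn9 84.9% of aligned window bases were identical. A match describes the letters in a window and does not show that a factor binds there.

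Slfn3, of intermediate length and linked to intestinal cell maturation in rats, had 23.1, 19.6 and 18.4 CPM in control and 23.8, 18.7 and 18.7 CPM after sleep fragmentation. The libraries of both groups covered nearly the same range. Means were 20.4 ± 2.47 against 20.4 ± 2.94 CPM (SD, n = 3), and the 95% interval of the log2 fold change was -0.37 to 0.37 (edgeR adjusted p = 0.99988). Slfn3 lies next to Slfn4 in the cluster, and the transcripts of these neighbours were identical at 92.6% of aligned bases, but they shared no 100-base window. For each count of Slfn3 there were 18.6, 39.1 and 23.2 counts of Slfn4 in control and 79.0, 33.6 and 56.7 after sleep fragmentation. The ratio thus varied within each group and overlapped between the groups.

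The size of these differences changed with single libraries. Sleep fragmentation replicate 1 was the highest library for each of the 7 members. Without it the median log2 fold change over the members was 0.39, and 2 members, Slfn1 and Slfn5, had an unadjusted p under 0.05 by edgeR, where 2.21% of all genes had one. With all libraries these were 5 members and 341 of 12097 genes. When control replicate 1 was left out, 2 members, again Slfn1 and Slfn5, and 1.26% of all genes had such a p. When control replicate 3 was left out, the numbers were 3 members and 1.66% of genes. Omitting control replicate 2 gave 4 members and 6.18% of genes, omitting sleep fragmentation replicate 2 gave 5 members and 10.8%, and omitting sleep fragmentation replicate 3 gave 4 members and 1.6%. The number thus changed over all genes as well as in the family. With replicate 1 of both groups left out, a setting added once the values were known, the median was 0.28, and 0 members had an unadjusted p under 0.05, against 1.9% of all genes. With replicate 2 of both groups left out, added in the same way, edgeR called 3 members, Slfn1, Slfn2 and Slfn4, among 231 genes of 12160 tested (1.9%). Their log2 fold changes were then 1.79, 1.02 and 1.79 (edgeR adjusted p = 0.012, 0.032 and 0.019).

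**Figure D3:**
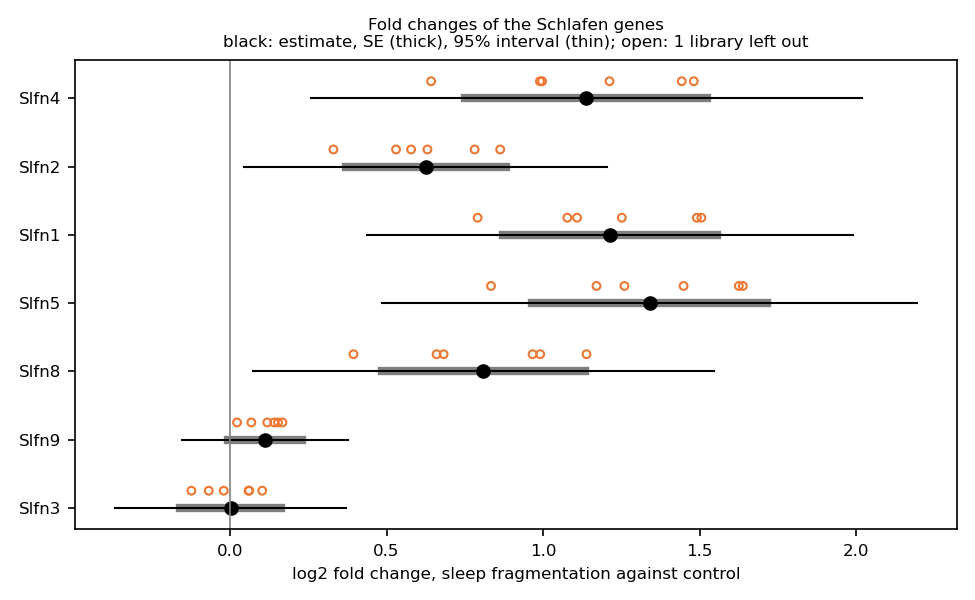
Log2 fold change of each Schlafen gene, sleep fragmentation against control (horizontal axis), with its SE (thick line) and 95% interval (thin line); open circles are the values with 1 library left out. The estimates of Slfn1, Slfn2, Slfn4, Slfn5 and Slfn8 stay above 0 with any 1 library left out, the lowest circle being that without sleep fragmentation replicate 1, while those of Slfn3 fall on both sides of 0.

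Genes of maturing neutrophils varied across the libraries alongside Slfn1, Slfn2 and Slfn4. The score of 30 late granule and maturing neutrophil genes, their mean log2 CPM minus its mean over the 6 libraries, was -0.55, 0.20 and -0.63 in the control libraries, and 0.85, -0.34 and 0.47 in the sleep fragmentation libraries, in order of replicate number. Slfn4, on the same scale, had -0.80, 0.04 and -0.82 in control and 1.33, -0.25 and 0.50 after sleep fragmentation. Like the score, it was higher in control replicate 2 than in sleep fragmentation replicate 2. The score of 66 interferon-stimulated genes other than Schlafen genes was -0.64, -0.33 and -0.12 in control and 0.72, 0.18 and 0.19 after sleep fragmentation, without overlap. Slfn5 had -0.75, -1.005 and -0.12 in control and 1.43, -0.06 and 0.51 after sleep fragmentation, and its lowest library was control replicate 2. When the late granule score entered the fit, which was also decided with the values in view, the log2 fold change was 0.43 (SE 0.12) for Slfn1, 0.065 (SE 0.12) for Slfn2 and 0.27 (SE 0.13) for Slfn4. In that fit it was 0.86 (SE 0.65) for Slfn5 and 0.57 (SE 0.59) for Slfn8. The part of maturing neutrophils in the sorted cells in these differences, and that of the progenitors themselves, was not tested.

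**Figure D4:**
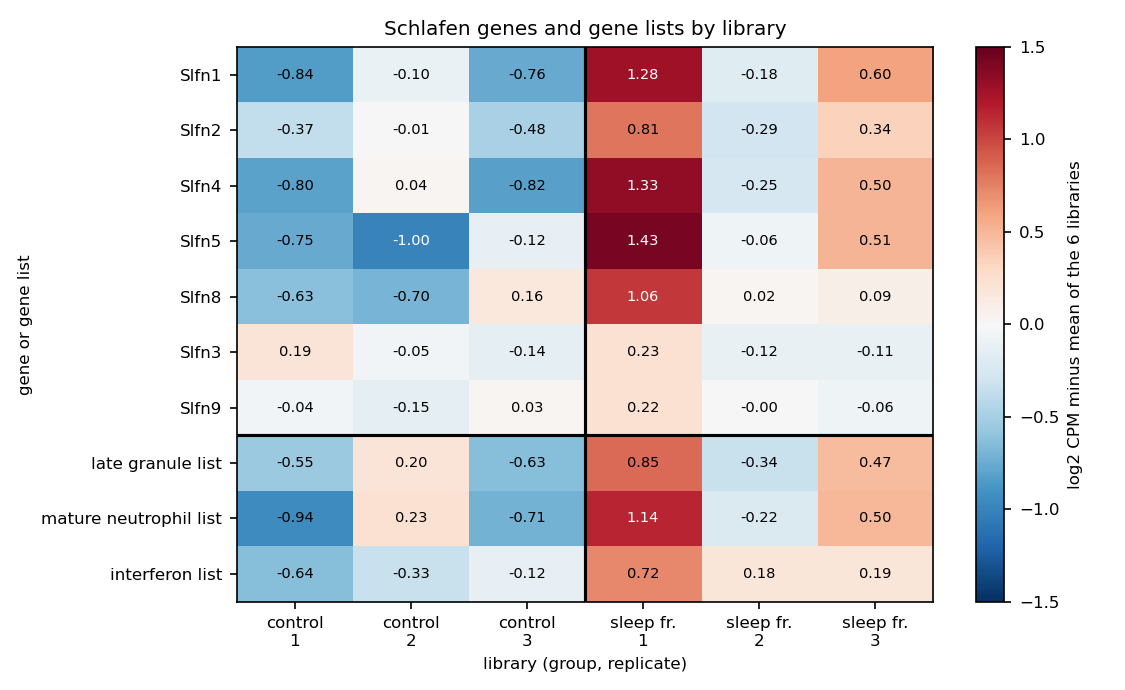
Log2 CPM minus the mean of the 6 libraries (colour and printed value) for each Schlafen gene and, below the line, the scores of 3 gene lists, by library. Control replicate 2 and sleep fragmentation replicate 2 stand in the same order for Slfn1, Slfn2, Slfn4 and the late granule and mature neutrophil lists, and in the opposite order for Slfn5, Slfn8 and the interferon list.

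Other genes of the interferon pathway were taken from lists, in which 0 members passed edgeR's test. Of 66 tested interferon-stimulated genes 61 were fitted higher (median log2 fold change 0.54), against 49% of all genes tested. At an unadjusted p under 0.05 by edgeR 31 were higher, against 2.16% of all genes, and 0 were lower, against 0.661%. Like that of the Schlafen genes, this median was smaller when sleep fragmentation replicate 1 was omitted (0.33), when replicate 1 of both groups was omitted (0.27) and with the late granule score in the fit (0.40). The groups did not overlap in 27 of them, all higher. Xaf1, Ifi204 and Ifit1 had the smallest p, with log2 fold changes of 1.40, 1.41 and 2.71. Of 22 genes of interferon receptors and signalling 17 were fitted higher (median 0.15), against 49% of all genes. At an unadjusted p under 0.05 by edgeR 5 were higher, against 2.16% of all genes, and 5 were higher without overlap, against 2.92%. Among these Usp18, a brake on the interferon receptor, had 2.62 ± 1.63 against 8.84 ± 4.44 CPM (SD, n = 3), and Irf9, the part of the factor complex that binds the response element, 44.5 ± 8.42 against 71.9 ± 20.5 CPM (SD, n = 3). Irf7, which amplifies interferon production, had a log2 fold change of 1.28.

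Late granule and maturing neutrophil genes were fitted higher in 30 of 30 cases (median log2 fold change 0.64), against 49% of all genes. At an unadjusted p under 0.05 by edgeR, 9 were higher, against 2.16% of all genes. Stfa2l1, Ccl6 and Fpr2 had the smallest p there, with log2 fold changes of 1.48, 0.63 and 1.11. Because Slfn2 guards transfer RNAs, a list of 8 tested genes drawn up for transfer RNA cleavage, processing and modification was examined. Of the 8, 3 were fitted higher (median -0.025). The list includes Dnmt1, a DNA methyltransferase that is no transfer RNA gene, and its value enters these numbers. Dnmt1, Elac1 and Trdmt1 had the smallest p of these, with log2 fold changes of -0.20, 0.22 and 0.27, and 0 of the 8 had an unadjusted p under 0.05. Because Slfn1 and Slfn2 are linked to quiescence, 19 tested genes of quiescence and cell cycle entry were examined too. Of these 9 were fitted higher (median -0.029), with 0 at an unadjusted p under 0.05. Cdkn1b, an inhibitor of cell cycle entry, had 87.5 ± 16.3 against 111.8 ± 24.2 CPM (SD, n = 3), and Mcm5 and Mcm3, subunits of the replicative helicase, had log2 fold changes of -0.20 and -0.26.

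Genes with the most similar pattern were sought among 9500 genes outside the family with a mean of at least 5 CPM, by Pearson's r of log2 CPM over the 6 libraries, which are a small number of points shared by all genes. Slfn2 was most like Samd9l, an interferon-inducible restriction factor (r = 0.998), followed by Snap23 and Msn, and 423 genes had an r above 0.95 with it. Slfn4 was most like Cdk11b, Gpat3 and Capg (r = 0.997, 0.997 and 0.996, with 367 genes above 0.95), and Slfn1 like Mff, Nudt7 and Ccr1 (r = 0.998, 0.994 and 0.994, with 226 genes above 0.95). Far fewer genes resembled the other members. Slfn5 had 12 genes above 0.95, led by Prkx, Snx10 and Trim30d (r = 0.981, 0.980 and 0.973). Slfn8 had 14, led by Tgfbi, Trim30d and Erbin (r = 0.987, 0.983 and 0.975), so that Trim30d, an interferon-inducible gene, was near the top for both. For Slfn3 there were 10, led by Bod1l, Shprh and Faf1 (r = 0.998, 0.993 and 0.980), and for Slfn9 7, led by Slc35b3, Hlcs and Ccdc28a (r = 0.979, 0.978 and 0.976). Whether such numbers of genes exceed what 6 libraries give for unrelated genes was not tested.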

How the data were processed

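The values are raw counts of reads per gene, as deposited by the authors, for 3 control and 3 sleep fragmentation libraries; groups and replicate numbers come from the sample titles. The submitters' processing notes name fastp, HISAT2, HTSeq and build GRCm39. Their versions, strand setting and annotation release are not given in the sources used here. Members, lists and tests were chosen with earlier results of these data known.

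Of 16539 genes, filterByExpr (minimum count 10, minimum total 15) kept 12097. Counts were TMM-scaled (factors 0.910 to 1.09) and tested by edgeR's robust quasi-likelihood method (edgeR 4.0.16, R 4.3.3), with Benjamini-Hochberg adjustment over all genes tested and a threshold of 0.05. DESeq2 1.42.0 and limma 3.58.1 (voom) were alternatives. Fits were checked on simulated counts. Positive log2 fold changes mean a higher level after sleep fragmentation. Log2 CPM used a prior count of 2. Counting error of a member's count was at most 6.36% (Slfn5, control replicate 2), below the spread between replicates.

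The genes named are the 7 members, the other Slfn rows, the 3 genes of each pathway list with the smallest p and the 3 genes most like each member. Mpo and Elane are named only as examples of the marker list.

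Coding lengths and transcript sequences come from GENCODE M21 and promoter windows from RefSeq, both on GRCm38, matched by symbol (7 of 7 members); the table gives no coordinates. Sequences were compared with Biopython 1.88. Genes of near-identical sequence can lose or exchange reads at counting, so values of single Schlafen genes are uncertain.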

Additional observations from a re-analysis of the deposited data

How the results depend on the processing

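The log2 fold changes of Slfn1, Slfn2, Slfn4, Slfn5, Slfn8 and Slfn9 kept their direction in all 17 alternatives each. Among these were other scalings, filters and tools and each library left out. Slfn3 and Slfn4, and Slfn8 and Slfn9, were also summed to 1 row each, and that value stands for both genes. The value of Slfn9 came near 0, at 0.0036 with library size scaling and 0.023 without sleep fragmentation replicate 1. For Slfn3, which was near 0, the sign turned with library size scaling (-0.11), no filter (-0.0041), limma-voom (-0.0039), the late granule covariate (-0.095) and replicate 1 of both groups left out (-0.022), and the range with 1 library left out was -0.12 to 0.10. Scaling by library size moved the median of all genes to -0.11. The number of genes called over all genes was 13 with DESeq2 and 231 without replicate 2 of both groups, where 3 Schlafen genes were called; the cause was not tested. The median of the Schlafen genes lay between 0.39 and 0.99 with 1 library left out, and was 0.27 with the late granule covariate and 0.28 with replicate 1 of both groups left out. Same-numbered libraries did not deviate together (correlations of -0.25, -0.37 and -0.006 over genes). With 3 libraries per group, these correlations cannot decide whether the numbers pair the libraries. With the replicate block 0 genes were called, the number of genes at an unadjusted p under 0.05 fell from 341 to 169, the median of the Schlafen genes was 0.78, and Slfn3 had -1e-04.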
